A study of Homo sapiens with 2 samples.

Results

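The microRNA processing and silencing machinery is described here by 10 genes: DROSHA, DGCR8, XPO5, DICER1, AGO1, AGO2, AGO3, AGO4, TNRC6A and TNRC6B. Its probe sets were those whose only gene symbol in the platform annotation was one of these genes, which gave 36 probe sets of 9 genes, out of 54613 probe sets and 19775 named genes in all. DGCR8 had no such probe set. The arrays compared hTERT-RPE1 cells transfected for 72 h with a miR-129-3p oligo and the same cells transfected for 72 h with a control oligo. hTERT-RPE1 is a line from human retinal pigment epithelium, kept dividing by telomerase. Both cultures received a lipid transfection reagent and were grown in medium with 10% serum and hygromycin B, and 100 ng of total RNA from each was labelled for an Affymetrix array.

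Each group held 1 array, so no value has a replicate error, no difference was tested, and a difference compares these 2 arrays. The deposited intensities had a median of 98.0 on the miR-129-3p array and 96.5 on the control array. A difference is log2(value + 16) on the miR-129-3p array minus that on the control array, a scale that understates differences of dim probe sets. A probe set counts as above the filter where its brighter array read 100 or more. Where a gene had several probe sets above the filter, the pooled SD of these was 0.37 (6179 genes), which leaves out the spread between cultures. Of 12 fixed markers of retinal pigment epithelium, 5 reached 100 on the miR-129-3p array and 4 on the control array; RPE65, RLBP1, BEST1, TYR, TYRP1, SERPINF1 and LRAT were under 100 on both on their brightest probe sets. Of the 5 that reached 100 on an array, MITF alone was lower with miR-129-3p, at 1020 against 2470 in control. OTX2 read 1625 with miR-129-3p and 1452 in control, and PMEL read 229 with miR-129-3p and 114 in control. RDH5 read 197 with miR-129-3p and 169 in control, and TTR read 110 with miR-129-3p and 91 in control. The 12 markers summed to 3522 with miR-129-3p and 4659 in control; their part in the results below was not tested. Of 8 measured blood cell markers, 1 reached 100 (HBB, at 149 with miR-129-3p and 162 in control), and of 5 neuronal markers 3 did on each array, led by SYT1 at 2359 with miR-129-3p and 1313 in control.

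MicroRNAs are cut from long primary transcripts in the nucleus by the Microprocessor, in which the RNase III enzyme DROSHA works with the RNA-binding protein DGCR8. Exportin 5, encoded by XPO5, carries the precursor hairpin to the cytoplasm, where the RNase III enzyme Dicer cuts it to a duplex. One strand is kept by an Argonaute protein, and Argonaute recruits a GW182 protein, encoded by a TNRC6 gene, which brings the deadenylases that shorten the target's poly(A) tail. A microRNA transfected as a duplex joins this pathway at the Argonaute step; the form of the oligo used here is not given in the sources used.

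The transfected microRNA is shown because Argonaute chooses its targets mainly by the seed, bases 2 to 8, printed in capitals. RefSeq (GRCh38.p14) lists a pair of human mature forms that share the seed and differ by U20C, the first form's base given first and positions counted from the 5′ end. Which form the oligo carried is not given in the sources used here.
hsa-miR-129-1-3p: aAGCCCUUaccccaaaaaguau
hsa-miR-129-2-3p: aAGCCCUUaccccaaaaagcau
The forms are encoded at chr7:128207920-128207941 and chr11:43581450-43581471, both on the plus strand.

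Across the machinery, DICER1, AGO1 and AGO2 had lower signals with miR-129-3p, TNRC6A had higher ones, and DROSHA, XPO5, AGO3, AGO4 and TNRC6B differed little on their brightest probe sets. All 9 genes with a probe set had at least 1 above the filter, as did 29 of the 36 probe sets. Each gene was represented by its brightest probe set, the one of highest mean log2(value + 16) over both arrays. On these, 2 of 9 genes were at least 1.5-fold lower, against 10.8% of 12754 genes above the filter. At least 1.5-fold higher were 0 of 9, against 17.3% of all genes. The median difference over the 9 genes was 0.11, and 0.03 over all genes above the filter. Counted by probe set, 2 of 29 were at least 1.5-fold lower, against 11.1% of all named probe sets, and 1 of 29 was at least 1.5-fold higher, against 16.7%. Probe sets of 1 gene share a target and are not replicates. The genes past 1.5-fold were DICER1 and AGO1; averaged over their probe sets above the filter neither was, at -0.41 and -0.45. Each array read the RNA of a whole culture, so a change in some cells and a change in all cells cannot be told apart.

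**Figure D1:**
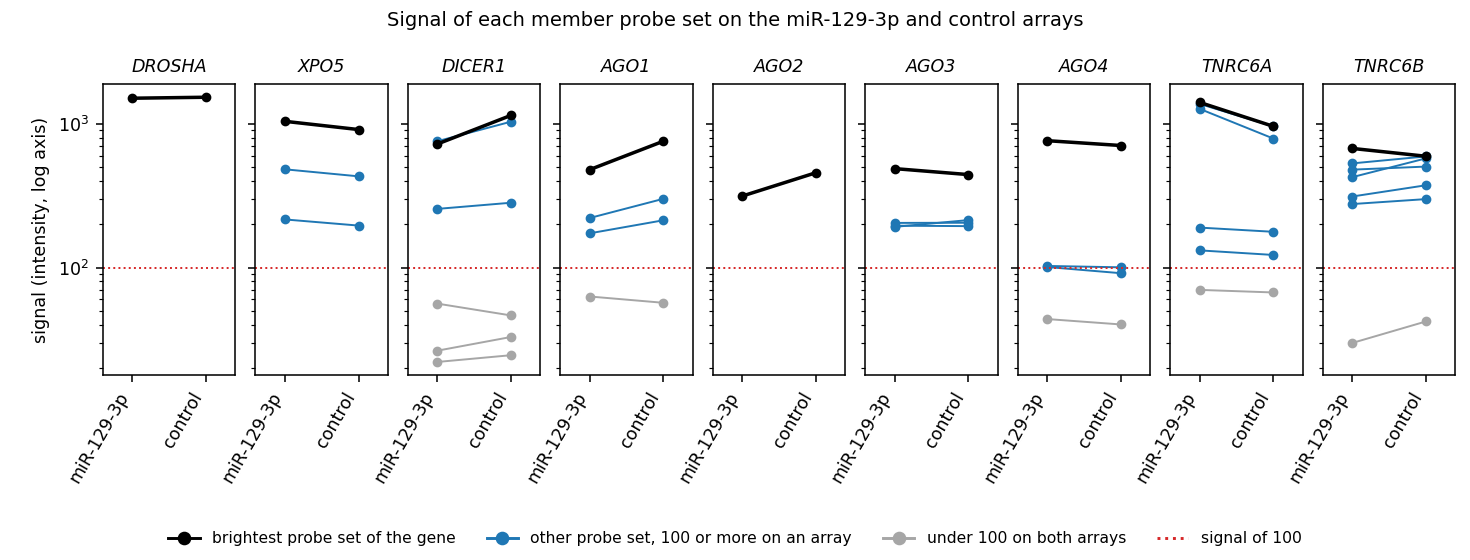
Signal of every member probe set (deposited intensity, log axis) on the miR-129-3p array, left, and the control array, right, in a panel per gene; lines join the 2 readings of a probe set, and the red dotted line marks a signal of 100. The bright lines of DICER1, AGO1 and AGO2 are lower on the miR-129-3p side, those of TNRC6A are higher, and the probe set of DROSHA, at 1504 and 1528, is nearly level.

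In the nuclear steps, DROSHA read 1504 with miR-129-3p and 1528 in control on its only probe set, a difference of -0.02. The Microprocessor partner DGCR8 could not be read on its own, because 4 probe sets are annotated to both MIR1306 and DGCR8. MIR1306 is a microRNA gene that lies inside DGCR8 in the RefSeq table. These shared probe sets read 173 to 358 with miR-129-3p and 194 to 420 in control, and their differences ran from -0.22 to -0.03. The exportin gene XPO5 read 1039, 482 and 216 with miR-129-3p, against 911, 431 and 196 in control on the same 3 probe sets. Each of the 3 was slightly higher with miR-129-3p, by 0.13 to 0.19, less than the pooled SD between probe sets of a gene.

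DICER1 encodes the cytoplasmic enzyme that makes the mature duplex. Its brightest probe set read 722 with miR-129-3p and 1143 in control, a difference of -0.65 (1.57-fold lower). The next read 755 with miR-129-3p and 1033 in control, a difference of -0.44. A dimmer probe set read 256 with miR-129-3p and 282 in control, a difference of -0.13. All 3 DICER1 probe sets above the filter were lower with miR-129-3p, and the other 3 stood under 100 on both arrays, at 22.0 to 56.1 with miR-129-3p and 24.6 to 46.4 in control.

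The Argonautes hold the guide strand, and in human cells AGO2 is the member best known for slicing a fully paired target. AGO1 read 479, 221 and 173 with miR-129-3p, against 756, 301 and 213 in control on its 3 probe sets above the filter. All 3 were lower with miR-129-3p, by differences of -0.64 (1.56-fold), -0.42 and -0.28. Its remaining probe set read 62.9 with miR-129-3p and 56.8 in control, under the filter on both.

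AGO2 had 1 probe set with no other gene symbol, which read 314 with miR-129-3p and 456 in control, a difference of -0.52 (1.43-fold lower). A further 3 probe sets are annotated to both CASC7 and AGO2, and CASC7 is a synonym of AGO2 in the RefSeq table. Of these, 1 read 597 with miR-129-3p and 1160 in control (difference -0.94). Another read 302 with miR-129-3p and 684 in control (difference -1.14), and the last was under 100 on both arrays. The shared probe sets above the filter were thus lower with miR-129-3p, by more than the single-symbol one; they enter no count above.

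AGO3 and AGO4 differed little. AGO3 read 487 with miR-129-3p and 443 in control on its brightest probe set, a difference of 0.13. Its other 3 read 192 to 204 with miR-129-3p and 194 to 214 in control, with differences of -0.14 to 0.01. AGO4 read 762 with miR-129-3p and 705 in control, a difference of 0.11, and its 3 probe sets above the filter lay between 0.03 and 0.12. AGO4, AGO1 and AGO3 are consecutive protein-coding genes on chromosome 1 in the RefSeq table, with AGO1 in the middle. The gene in the middle thus read lower with miR-129-3p on each probe set above the filter, while the lowest difference on any probe set of its neighbours above the filter was -0.14.

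The GW182 genes differed from each other. TNRC6A read 1406, 1373 and 1268 with miR-129-3p on its 3 bright probe sets, against 959, 957 and 788 in control. These were higher with miR-129-3p by differences of 0.55 (1.46-fold), 0.51 and 0.67 (1.60-fold). The 2 dimmer TNRC6A probe sets above the filter read 189 and 132 with miR-129-3p, against 177 and 122 in control, and differed by 0.09 each. TNRC6B read 673 with miR-129-3p and 594 in control on its brightest probe set, a difference of 0.18. Its other 5 above the filter were all lower with miR-129-3p, by differences of -0.42 to -0.07, so no direction can be given for TNRC6B. TNRC6C, the third GW182 gene and not among the members, read 445 with miR-129-3p and 363 in control on its brightest probe set, a difference of 0.28. Its other probe set above the filter differed by 0.39, and the rest, under 100 on both arrays, by -0.38 to 0.22.

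In DICER1 and AGO1, the brighter a probe set above the filter was, the larger was its difference, and in TNRC6A the 3 bright probe sets differed by more than the 2 dim ones. By brightness over both arrays, 0 of 12 member probe sets with a mean signal under 300 were at least 1.5-fold different in either direction. Between 300 and 1000, 2 of 13 were at least 1.5-fold lower, against 13.1% of all named probe sets in that range. None of these 13 was higher by that much, against 18.4%. At 1000 or more, 1 of 4 was at least 1.5-fold higher, against 16.9%, and 0 lower, against 13.9%. Under 300, 15.3% of all named probe sets were at least 1.5-fold higher and 8.04% lower.

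**Figure D2:**
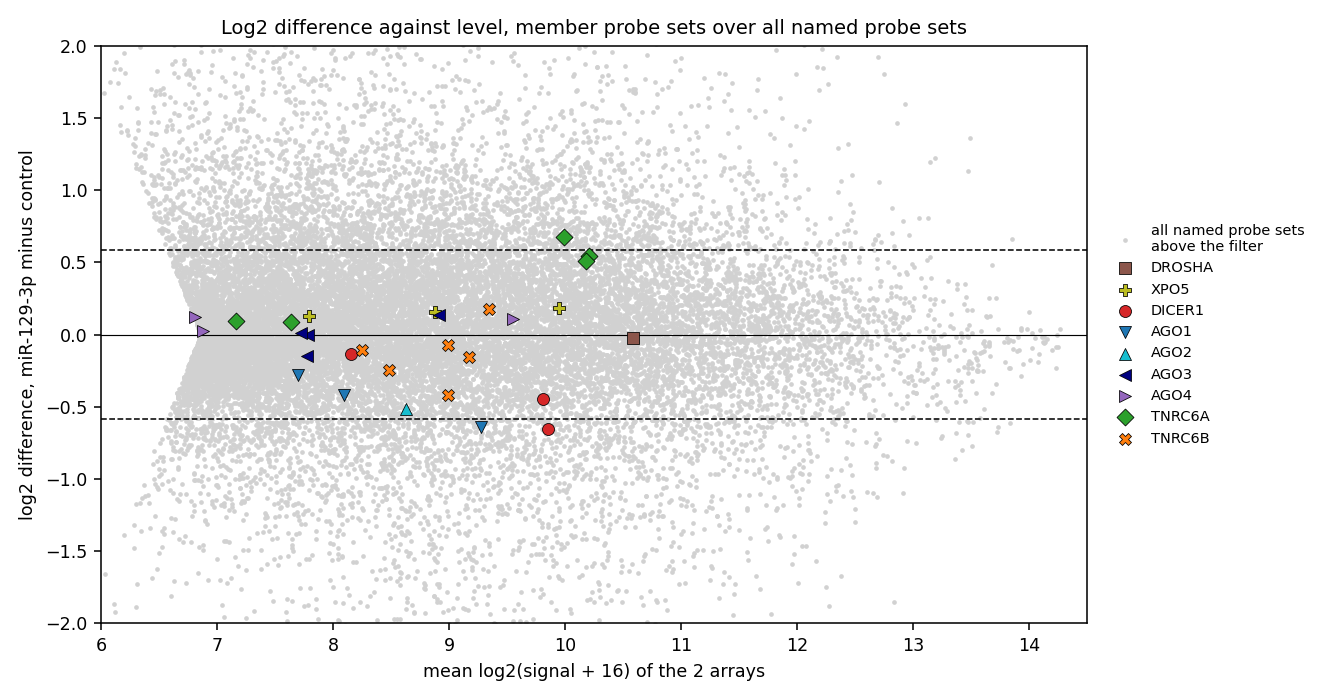
Log2 difference (miR-129-3p minus control) against the mean log2(signal + 16) of the 2 arrays for member probe sets (coloured symbols, by gene) over all named probe sets above the filter (grey); dashed lines mark 1.5-fold, and 691 grey points lie beyond the vertical axis and 4 beyond the horizontal one. The TNRC6A symbols near level 10 lie highest among the members, at 0.51 to 0.67, and DICER1 and AGO1 hold the 2 below the lower dashed line.

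Promoter letters were compared for the members. RefSeq windows of the 250 bases before a transcript start were used for 9 of the 10 genes (GRCh38.p14; 13 windows), without AGO2, whose probe sets listed with CASC7 and above the filter differed by more than those of any gene shown. The letters CCAAT, the core of the CCAAT box, were searched on both strands. They were found in 7 of the 13 windows, against 32.0% of 35116 windows of all genes. By gene, 6 of the 9 held a match in any window, and the like share over all genes was not computed. GGGCGG, the core of the GC box, searched separately on both strands, stood in 9 of the 13 windows, against 42.6%. For AGO1 and DICER1, lower with miR-129-3p, and TNRC6A, higher with it, the match nearest to a start is shown, with CCAAT or its reverse complement in capitals:
AGO1: ccgcccctctccATTGGcctttgttgccgt
DICER1: gccaggccctgtCCAATcacaggctcgctc
TNRC6A: ccaaggacctgcCCAATctgcgggtccagt
They lie at chr1:35883119-35883148 on the plus strand, chr14:95157586-95157615 on the minus strand and chr16:24729552-24729581 on the plus strand. Their matches begin 78, 74 and 87 bases before the start. TNRC6B, with no single direction, held 5 matches, 1 of them 93 bases before the start. DROSHA and DGCR8 also held CCAAT, while XPO5, AGO3 and AGO4, which differed little, did not. The letters stood in genes lower and in a gene higher with miR-129-3p, so they did not separate members by direction. A match of letters is a description of sequence, not a measured binding site.

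Other genes of the pathway were taken as 6 lists of 77 genes, of which 73 had a probe set with a single symbol and 67 were above the filter. With miR-129-3p, 14 of the 67 were higher by 1.5-fold or more and 7 lower by as much, beside 17.3% and 10.8% of all genes. Over the lists together the median difference was 0.04. Differences over the 67 genes ran from -0.93 to 2.01, and over the 9 members from -0.65 to 0.55.

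**Figure D3:**
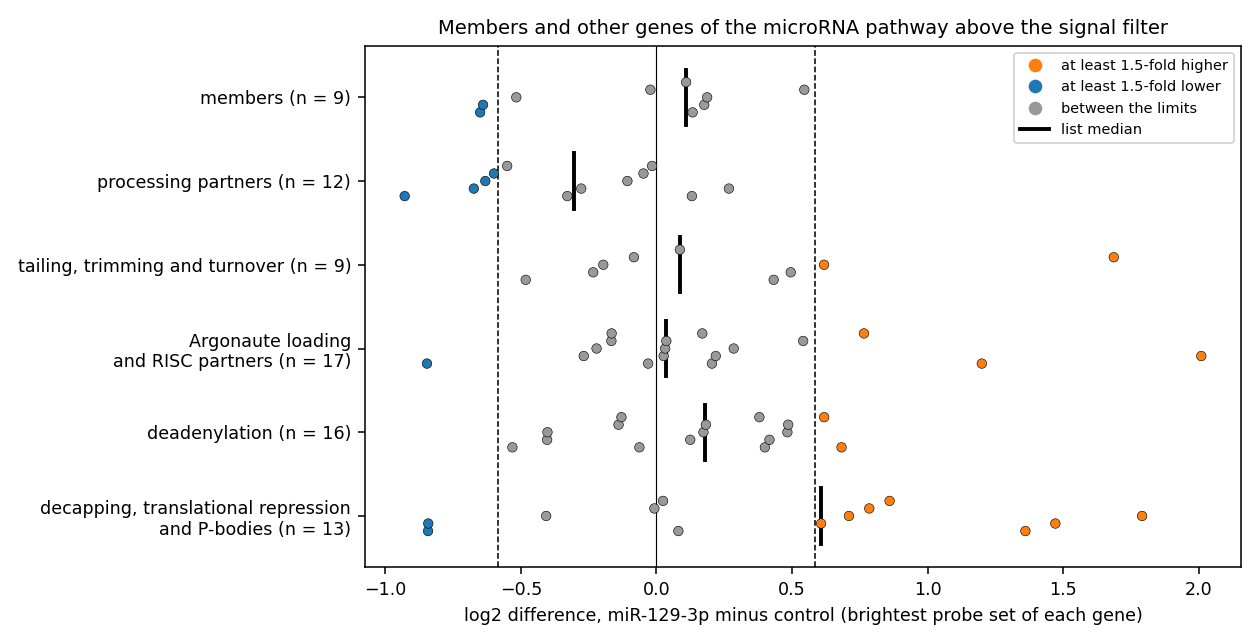
Log2 difference (miR-129-3p minus control) of each gene above the filter, on its brightest probe set, for the members and 5 lists of other pathway genes; black bars are list medians and dashed lines mark 1.5-fold. The decapping list has the highest median, 0.61, with 7 genes beyond the upper line and 2 beyond the lower, and the processing partners have the lowest, -0.30.

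Among partners of the processing enzymes, 4 of 12 measured genes read lower by 1.5-fold or more, against 10.8% of all genes. By as much, 0 were higher, against 17.3%, and the list median was -0.30. NCBP2, a subunit of the nuclear cap-binding complex, read 804 with miR-129-3p and 1546 in control (difference -0.93), and its other probe set differed by -1.02. RAN, the GTPase that loads exportins with cargo, read 2363 with miR-129-3p and 3779 in control (-0.67), but its other probe set differed by 0.13. PRKRA, the Dicer partner PACT, read 873 with miR-129-3p and 1330 in control (-0.60), and -0.09 was the difference on its other probe set. NCBP1, the other cap-binding subunit, was the remaining gene, at -0.63, and was named after its values were seen. TARBP2, the Dicer partner TRBP, read 338 with miR-129-3p and 350 in control (-0.05).

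In the list for tailing, trimming and turnover of microRNAs, 2 of 9 measured genes were at least 1.5-fold higher, against 17.3% of all genes. By as much, 0 were lower, against 10.8%, and the list median was 0.09. TUT7, a terminal uridylyltransferase that adds uridines to RNA ends, read 1949 with miR-129-3p and 594 in control, a difference of 1.69 (3.22-fold). All 5 of its probe sets were higher with miR-129-3p, by 1.06 to 1.69. TENT2, a poly(A) polymerase that adenylates microRNA ends, differed by 0.62, with its 3 probe sets between 0.24 and 0.78.

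Argonaute loading factors and partners of the silencing complex had a median of 0.04. Of these 17 genes, 3 were at least 1.5-fold higher, against 17.3% of all genes, and 1 was lower, against 10.8%. MOV10, an RNA helicase found with Argonaute that also restricts viruses, read 1100 with miR-129-3p and 261 in control, a difference of 2.01 (4.03-fold), and 0.80 was the difference on its other probe set. FMR1, the RNA-binding protein FMRP, read 2020 with miR-129-3p and 870 in control, and its probe sets differed by 1.20 and 1.25. FKBP5, an HSP90 co-chaperone, was the other higher gene, at 0.77, and was named after its values were seen. TSN, or translin, which forms a nuclease complex with TSNAX, read 1036 with miR-129-3p and 1875 in control, and its 3 probe sets ran from -0.85 to -0.70.

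The deadenylation list, mainly subunits of the CCR4-NOT complex that GW182 proteins recruit, had a median of 0.18. Of its 16 genes, 2 were at least 1.5-fold higher, against 17.3% of all genes, and 0 lower, against 10.8%. CNOT3, a regulatory subunit, read 203 with miR-129-3p and 120 in control (0.68) on its only probe set above the filter. CNOT8, a deadenylase subunit, read 1718 with miR-129-3p and 1113 in control (0.62), and its 3 probe sets lay between 0.45 and 0.62.

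In the decapping, translational repression and P-body list, 7 of 13 genes were higher by 1.5-fold or more, against 17.3% of all genes, and 2 were lower, against 10.8%. The list median was 0.61, and it was 0.23 when each gene was taken as the mean of its probe sets. Taken so, 5 of the 13 were higher by 1.5-fold or more, against 16.1% of all genes. PATL1, a scaffold that links deadenylation to decapping, read 2357 with miR-129-3p and 669 in control, a difference of 1.79 (3.46-fold). Of its 5 probe sets, 4 were at least 1.5-fold higher and 1 differed by -0.25. XRN1, the 5′ to 3′ exonuclease that degrades decapped RNA, read 2316 with miR-129-3p and 825 in control (1.47), with its 3 probe sets above the filter at 1.33 to 1.55. LSM14A, a P-body protein, read 909 with miR-129-3p and 1643 in control (-0.84), and its 3 probe sets ran from -0.95 to -0.84. DCP2, the decapping enzyme, read 662 with miR-129-3p and 1200 in control (-0.84), but 1 of its other probe sets differed by 0.22.

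**Figure D4:**
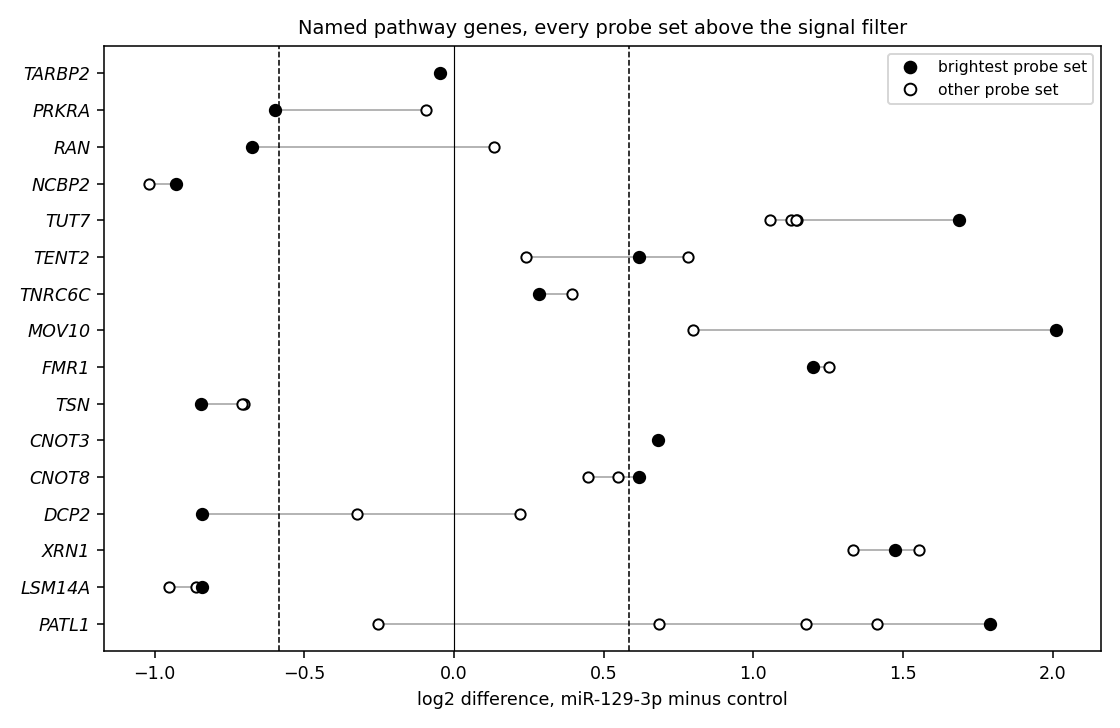
Log2 difference (miR-129-3p minus control) of every probe set above the filter for the named pathway genes; filled points are the brightest probe set, open points the others, grey lines their range, and dashed lines mark 1.5-fold. TUT7, FMR1, XRN1, TSN, LSM14A, NCBP2, MOV10 and CNOT3, which has a single point, have every point beyond 1.5-fold on 1 side, while the points of RAN, DCP2 and PATL1 span 0.

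The PIWI proteins are the germline branch of the Argonaute family. PIWIL1, PIWIL2 and PIWIL4 were under 100 on both arrays, with highest signals of 91.1 with miR-129-3p and 89.5 in control, both for PIWIL2; PIWIL3 had no probe set with a single symbol. The germ cell markers DDX4, DAZL, MAEL and TDRD1 were also under 100 on both arrays. On the same arrays, all 11 measured genes of a short interferon-stimulated list were higher by 1.5-fold or more, against 17.3% of all genes. Their summed signals were 83875 with miR-129-3p and 7423 in control. All 10 genes of a short G2/M list were at least 1.5-fold lower, against 10.8% of all genes, with summed signals of 2515 with miR-129-3p and 11948 in control. Both lists were chosen with earlier results of these data known. Their part in the differences of the machinery was not tested.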

How the data were processed

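Total RNA of 2 transfected hTERT-RPE1 cultures was measured on 2 arrays. The deposited intensities are linear, from 1 to 20822. MAS5 and RMA are both listed, with no role, per the submitters' processing notes, so the summary method behind these values and the scaling between arrays are unknown; background correction and detection calls are not given in the sources used here. Of 54613 probe sets, those with a single gene symbol (41091) were used, those with several (1801) or none in the annotation (11721) were not; 41037 of the named ones matched the RefSeq table by gene ID. Groups came from the genotype label.

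The members, lists and settings were chosen with earlier results of these data known. Named genes are all members, up to 2 past 1.5-fold at each end of each list, TARBP2, PRKRA, TNRC6C and the PIWI genes. HSPA8, BTG2 and PIWIL3 had no single-symbol probe set and were not analysed here; 1 other listed gene is not reported here. With 1 array per group no test was possible, and the number of arrays limits the precision. Code was tested on simulated data. Alternatives changed the scaling, added constant, filter, probe set choice and fold limit. Tools were pandas 2.3.3 and numpy 2.4.6 under Python 3.11.15, with statsmodels 0.14.6 for the loess trend and matplotlib 3.10.9 for plots.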

Additional observations from a re-analysis of the deposited data

How the results depend on the processing

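No paired analysis was possible because each group held 1 array. Over the alternatives, the difference of DICER1 ran from -0.73 to -0.41, of AGO1 from -0.72 to -0.28, of AGO2 from -0.94 to -0.46 and of TNRC6A from 0.38 to 0.67; TNRC6B changed sign, from -0.14 to 0.18, and AGO3 reached -0.001. DROSHA, XPO5 and AGO4 kept their sign. The -0.94 of AGO2 comes from including its probe sets listed with CASC7, chosen after seeing the data. Member probe sets at least 1.5-fold lower were then 4, not 2, the added ones of AGO2. In the main setting 11.1% of all named probe sets were lower. Member genes at least 1.5-fold lower were then 3 of 9, against 10.8% of all genes, with AGO2 added. With quantile normalization they were also 3, against 12.5%, again with AGO2 added, at -0.61. With the mean of all probe sets, 0 of 9 member genes were at least 1.5-fold lower, against 9.85%. Without probe sets ending in _x_at or _s_at, 1 member gene was higher (TNRC6A, 0.67), against 17.8% of all genes, and 1 was lower (DICER1), against 11.2%. XPO5, whose probe sets all end so, dropped out. In that setting 1 member probe set was lower, and the like share of all probe sets was not computed. AGO1 was then at -0.28. At limits of 2-fold and 3-fold, 0 member genes were lower, and 0 member probe sets were higher or lower. Shares at these limits were not computed, so these counts have no comparison.

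Among the other lists, processing partners had 2 lower genes with log2(value + 64) and 1 without _x_at and _s_at probe sets. Tailing and turnover had 1 higher gene with the loess trend subtracted, quantile normalization, log2(value + 64) or the mean of all probe sets. Argonaute partners had 1 higher gene without _x_at and _s_at probe sets, against 17.8% of all genes. That setting removes MOV10 and FMR1, whose probe sets all end so. Deadenylation had 1 higher gene under the same 4 settings as tailing. It also had 1 higher gene with a mean signal of 200 or more, against 18.6% of all genes. Without _x_at and _s_at probe sets it had 1 higher gene, against 17.8%, with CNOT8 removed because all its probe sets end so. With loess and with quantile normalization 1 gene was lower, against 11.5% and 12.5% of all genes. Decapping had 5 higher genes, 1 lower gene and a median of 0.23 with the mean of all probe sets. It had 6 higher genes with median centring, the loess trend subtracted, quantile normalization or log2(value + 64). Of 136 alternative counts, 109 lay within 1.5 times the value reported. These arrays hold no replicate, and low signals near 100 are the least certain.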
